A study of Arabidopsis thaliana with 66 samples.

Results

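WRKY transcription factors are a plant family named after a conserved stretch of their DNA-binding domain. The 52 WRKY loci described here were taken from a fixed list of locus identifiers, all of them present among the 27313 loci counted. Membership in that list uses no measured value, but the family was chosen with earlier results of these data known. RNA was sequenced from roots of Arabidopsis thaliana in 66 libraries, 3 in each of 22 groups. Col-0 is the wild type, and N8507, N8508 and N9416 are mutant stock lines whose mutated gene the labels do not name. Each genotype was grown on complete medium (mock), on phosphate-free medium (-P) and on phosphate-free medium with nano-hydroxyapatite, a particulate calcium phosphate (nanoP), without and with thorium (+Th) for 14 days, except that mock+Th was sequenced in N8507 and N9416 only. The labels used here give no thorium dose and do not say whether the libraries of a group came from separate plants, so a p-value measures only the spread between these libraries.

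WRKY proteins bind the W-box, a short DNA element with the core TTGAC, and many of them act below the mitogen-activated protein kinase cascades that relay pathogen, wound and stress signals. Several also sit in the phosphate pathway: in Arabidopsis roots WRKY75 and WRKY45 are known to promote phosphate uptake, and WRKY6 and WRKY42 to repress PHO1, the phosphate exporter that loads the xylem. The family is sorted by its domain into group I, with a pair of WRKY domains, group II with its subgroups IIa to IIe, and group III, with a different zinc finger. The signature is shown here because it defines the family and its sixth codon differs between members. Both kinds of codon occur among members that rose and members that fell with thorium on -P. With lysine, WRKY51 rose in 3 genotypes and fell in N9416, WRKY50 rose in N8507, and WRKY59 fell in 3 genotypes. The WRKY51 fall in N9416 held in 2 of 6 fits without 1 library. Each line holds the 21 coding bases of the 7-residue signature, 5′ to 3′, from the NCBI RefSeq genome TAIR10.1, with the codon of the sixth residue in capitals, which reads glutamine in most members and lysine in 3 (WRKY50, WRKY51 and WRKY59).
WRKY75: tggaggaaatatggcCAAaag
WRKY45: tggaggaagtacggcCAAaaa
WRKY70: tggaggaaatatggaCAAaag
WRKY33, first domain: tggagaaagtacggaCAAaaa
WRKY33, second domain: tggagaaaatacggcCAGaaa
WRKY51: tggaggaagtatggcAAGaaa
WRKY59: tggaggaaatacggaAAGaag
A scan of the coding sequences found the signature in every one of the 52 loci, 2 copies in 8 of them and 1 copy in 44.

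Reads assigned to the 27313 loci ranged from 9396787 to 16756416 per library, with a median of 13238391. Libraries of Col-0 and N8507 carry numbers 128 to 160 and those of N8508 and N9416 numbers 193 to 225, so comparisons of N8508 or N9416 with Col-0 cannot be told apart from this numbering. In 3 libraries (N8507 -P+Th replicate 3, N8507 nanoP replicate 3 and Col-0 -P+Th replicate 1) the effective transcript length fitted by the counting tool was low, and results without them are given where they differ. Root marker genes were read in every library (186 to 552 CPM, read counts scaled to the size of their library, summed over 8 genes), and 6 green tissue markers summed to at most 48.1 CPM. A lower value in bulk RNA may mean fewer cells of a type or less RNA per cell, which cannot be told apart.

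Most of the family was expressed. The mean level over the groups reached 1 on the TPM scale, which corrects for transcript length and library size, in 50 of the 52 loci, and the median member stood at 21.6 TPM against 8.3 for all loci. On that scale the highest group level was that of WRKY59 with 803 TPM, followed by WRKY33 with 575, WRKY46 with 339 and WRKY40 with 330. Members also differed in how far they moved: the highest group level was 166 times the lowest for WRKY62 and 74.0 times for WRKY75, but 1.77 times for WRKY3. After a filter on low counts 51 members were tested within Col-0 (WRKY8 was not) and 50 within each line (WRKY12 and WRKY42 were not). In comparisons of lines with Col-0 all 52 were tested. All values below in CPM are normalised read counts of one gene and are compared only between libraries. Changes are log2 fold changes with their standard error (SE), tested with edgeR's quasi-likelihood test, Benjamini-Hochberg adjusted over all genes tested, and a member is said to rise or fall where the adjusted p was under 0.05.

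**Figure D1:**
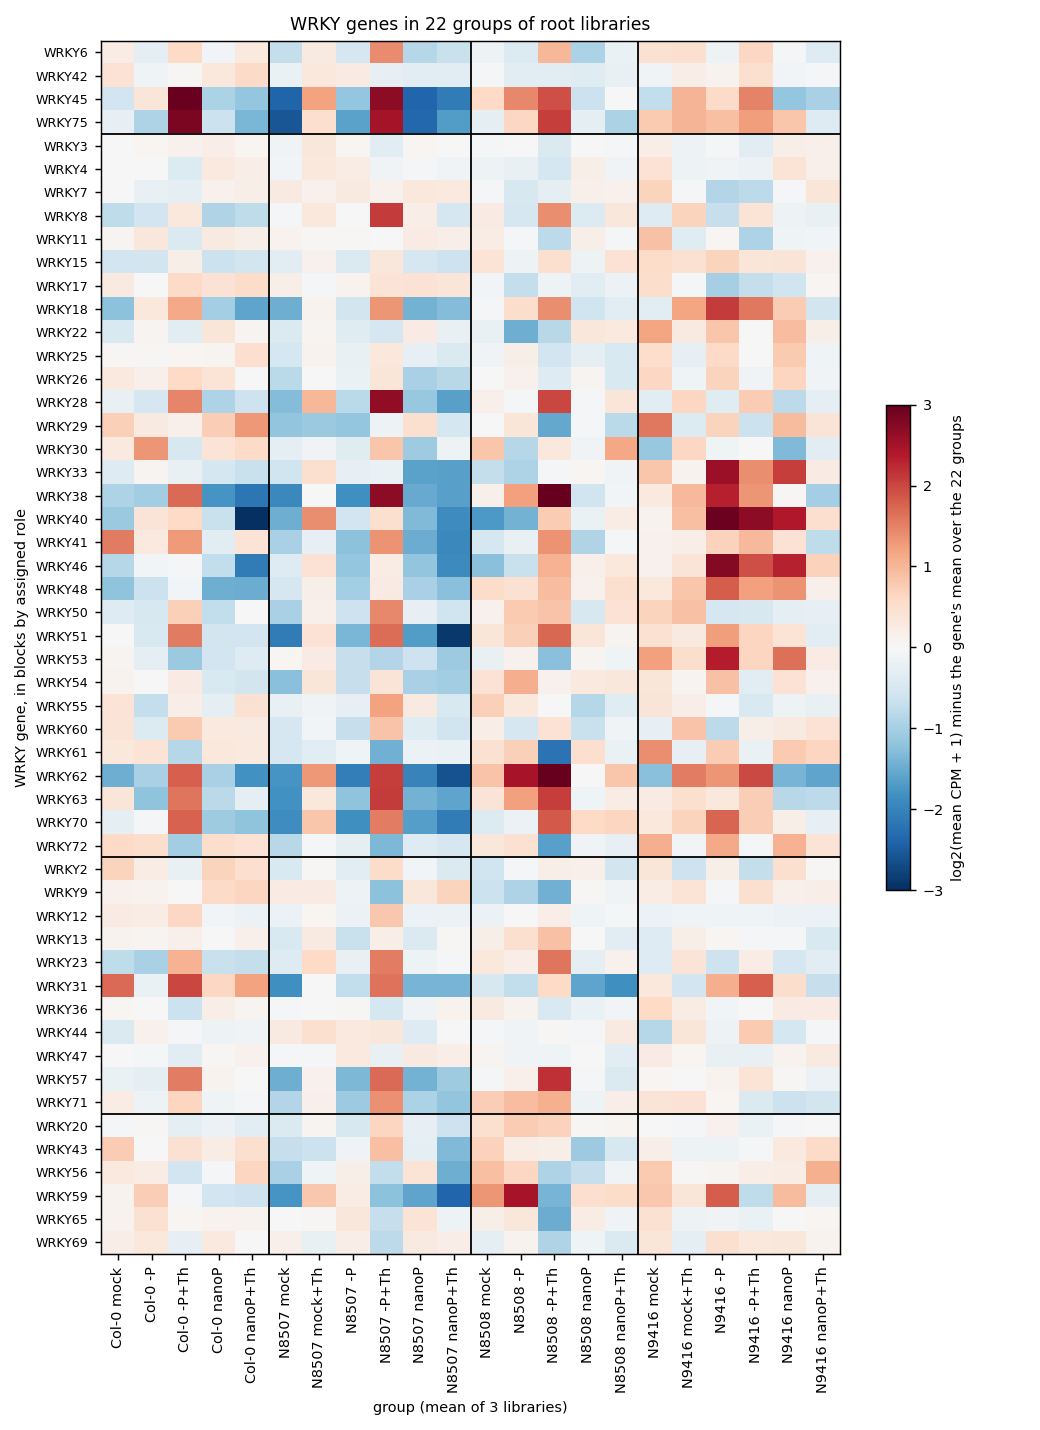
Heat map of the 52 WRKY genes (rows, in blocks by assigned role: phosphate homeostasis, defence and hormones, development, none assigned) in the 22 groups (columns, mean of 3 libraries). Colour gives log2(mean CPM + 1) minus the gene's mean over the 22 groups; WRKY45, WRKY75, WRKY28, WRKY62 and WRKY70 are red under -P+Th in Col-0, N8507 and N8508, and WRKY33, WRKY40, WRKY46 and WRKY53 are darkest in N9416 on -P.

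WRKY75, WRKY45 and WRKY6 rose with thorium on phosphate-free medium in every genotype, and WRKY75 did so from a level that the loss of phosphate alone had not moved past the threshold. WRKY75 (AT5G13080) in Col-0 stood at 7.11, 7.26 and 8.09 CPM on mock, at 2.23, 4.1 and 6.66 on -P, and at 97.3, 53.3 and 59.6 on -P+Th. The -P values lay below mock without overlap, and every -P+Th library was several times above both. WRKY75 rose with thorium on -P by 4.00 (SE 0.46, adjusted p = 3.59e-05) in Col-0 and by 4.61 (SE 0.52, adjusted p = 5.64e-06) in N8507, where it went from 2.1, 1.47 and 3.3 to 45.7, 42.6 and 77.6 CPM. The same change was 1.53 (SE 0.32, adjusted p = 0.00116) in N8508 and 0.42 (SE 0.14, adjusted p = 0.0272) in N9416. N9416 started from a higher level without thorium, 19.9, 18.4 and 15.1 CPM on -P, and reached only 23.4, 22.3 and 23.1. That N9416 call was lost in 4 of 6 fits that left out 1 library, with adjusted p up to 0.125 without replicate 3 of -P. The difference in thorium effect, line minus Col-0, was -2.51 (SE 0.53, adjusted p = 0.000543) in N8508 and -3.66 (SE 0.53, adjusted p = 2.16e-06) in N9416. The highest -P+Th values of Col-0 and N8507, 97.3 and 77.6 CPM, came from libraries of low effective length, of which N8508 and N9416 had none. The thorium calls of Col-0 and N8507 held without these libraries. Phosphate-free medium alone changed WRKY75 past the threshold in none of the 4 genotypes, with log2 changes of -0.78 (SE 0.44, adjusted p = 0.419) in Col-0, 1.70 (SE 0.57, adjusted p = 0.139) in N8507, 1.02 (SE 0.34, adjusted p = 0.0755) in N8508 and 0.13 (SE 0.15, adjusted p = 0.525) in N9416. With other processing WRKY75 passed in 3 of 5 alternatives in N8507 and in 1 of 4 in N8508. Its -P response, line minus Col-0, passed in N8507 (2.52) and N8508 (1.81), calls that held in 8 and 4 of 12 fits without 1 library.

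WRKY45 (AT3G01970), which binds the promoter of the phosphate transporter gene PHT1;1, was higher on -P than on mock and lower again with nano-hydroxyapatite. Its -P libraries lay above all mock libraries in each genotype: in Col-0 5.43, 3.87 and 3.21 CPM on mock against 6.38, 7.57 and 12.9 on -P. The rise was 0.91 (SE 0.18, adjusted p = 0.00497) in N8508 and 1.55 (SE 0.23, adjusted p = 6.2e-05) in N9416; in Col-0 it was 1.10 (SE 0.34, adjusted p = 0.073) and in N8507 2.43 (SE 0.71, adjusted p = 0.0732), both short of the threshold. Nano-hydroxyapatite took it back down, to 2.41, 3.82 and 2.63 CPM in Col-0, 3.49, 4.03 and 4.21 in N8508 and 2.55, 2.03 and 2.68 in N9416, again with no overlap with -P. WRKY45 fell by 1.59 (SE 0.35, adjusted p = 0.0114) in Col-0, by 2.34 (SE 0.20, adjusted p = 4.52e-07) in N8508 and by 2.08 (SE 0.24, adjusted p = 5.12e-06) in N9416, and the N8507 change of -2.32 (SE 0.71) had an adjusted p of 0.0848. The Col-0 call was lost without nanoP replicate 1 (adjusted p = 0.0508) or replicate 3 (0.0622). Thorium on -P brought WRKY45 to 88.8, 44.7 and 44.1 CPM in Col-0, a change of 2.70 (SE 0.33, adjusted p = 6.75e-05), and to 32.1, 34.7 and 78.4 in N8507, a change of 4.31 (SE 0.60, adjusted p = 4.34e-05). It rose by 1.03 (SE 0.20, adjusted p = 0.000639) in N9416 and by 0.53 (SE 0.17, adjusted p = 0.0206) in N8508, the last call being lost in 4 of 6 fits without 1 library, with adjusted p up to 0.0987 without -P replicate 2. The highest -P+Th values of WRKY45, 88.8 CPM in Col-0 and 78.4 in N8507, came from libraries of low effective length. Both calls held without these libraries.

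WRKY6 (AT1G62300) changed less and in the same direction under thorium. Its Col-0 libraries held 48.4, 44.9 and 28.8 CPM on -P and 55.4, 103 and 70.9 on -P+Th, a rise of 0.88 (SE 0.21, adjusted p = 0.00741), and the rises in N8507, N8508 and N9416 were 1.97 (SE 0.29), 1.44 (SE 0.19) and 0.84 (SE 0.12). No -P+Th library overlapped those of -P in any genotype. On -P against mock WRKY6 fell by 0.60 (SE 0.12, adjusted p = 0.000955) in N9416 and passed in no other genotype. WRKY42 was close to undetected, at 0 to 1.77 CPM over the 66 libraries. Within genotypes it could be tested in Col-0 only, where the thorium change on -P was 0.54 (SE 1.12, adjusted p = 0.75). As the point of reference, PHO1, the gene that WRKY6 and WRKY42 repress, fell with thorium on -P in all 4 genotypes, by 1.04 (SE 0.20) in Col-0, 3.01 (SE 0.35) in N8507, 2.38 (SE 0.14) in N8508 and 1.3 (SE 0.09) in N9416. PHT1;1, whose reads can be split with near-identical neighbouring copies, fell as well, by 2.73 (SE 0.29), 2.68 (SE 0.31), 3.58 (SE 0.26) and 0.60 (SE 0.13). With thorium on mock, PHT1;1 rose by 1.09 (SE 0.29) in N8507 and 1.11 (SE 0.14) in N9416. There PHO1 did not pass in N8507, at -0.31 (SE 0.33), and fell by 0.30 (SE 0.08) in N9416. WRKY6 rose by 1.04 (SE 0.28) in N8507 on mock, a call that held in 2 of 6 fits without 1 library, and did not pass in N9416. Links between these genes were not tested.

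**Figure D2:**
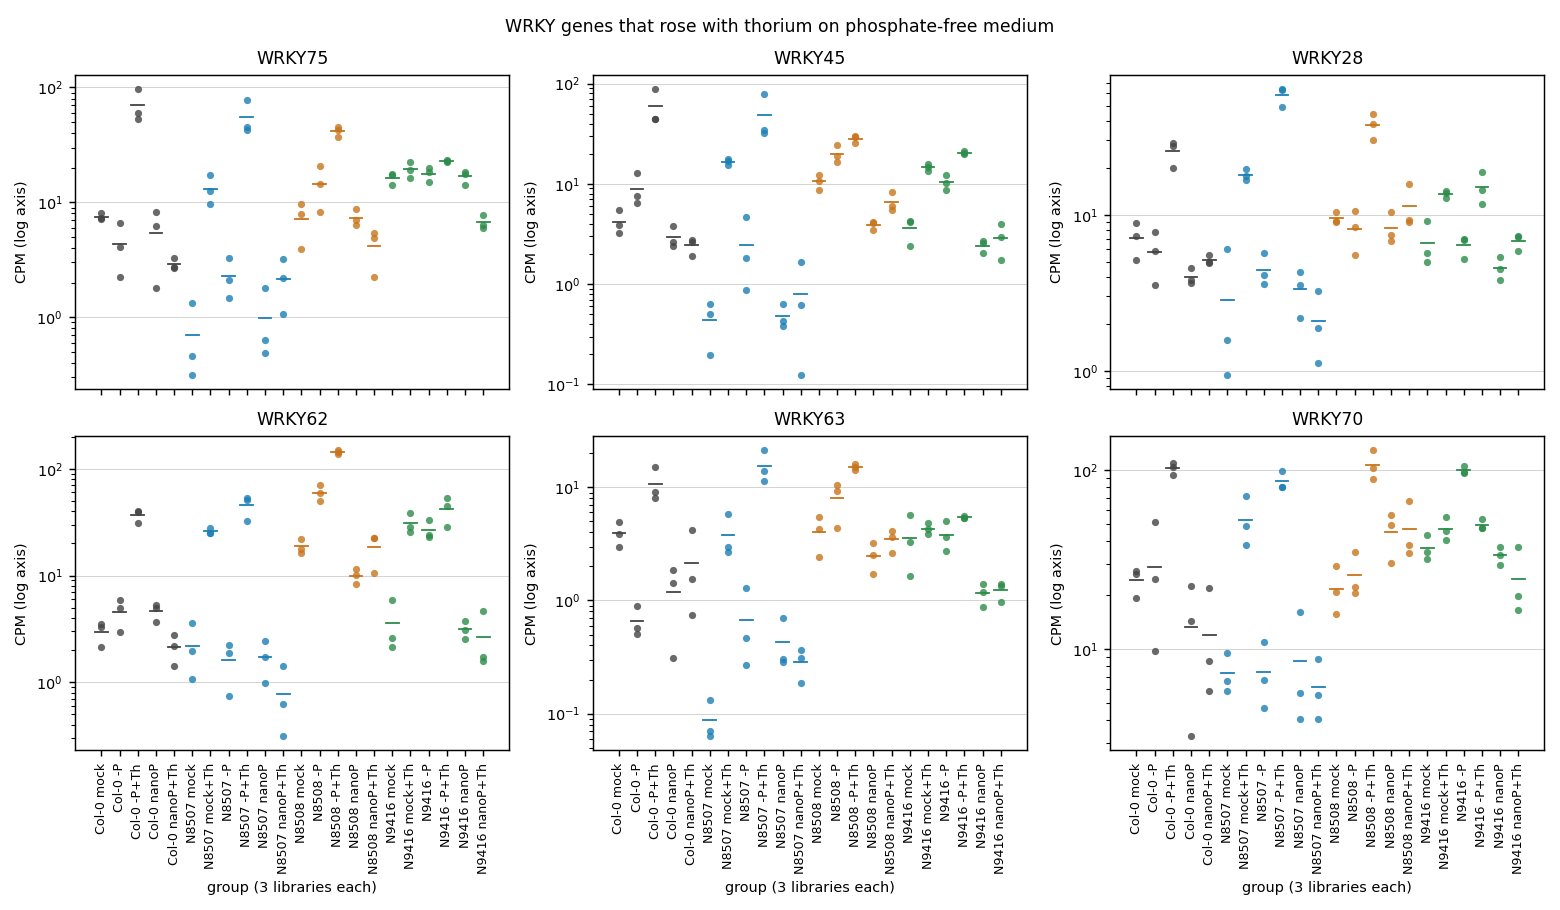
CPM on a log axis of WRKY75, WRKY45, WRKY28, WRKY62, WRKY63 and WRKY70 in each library (points) with the group mean (bars), by group and coloured by genotype. WRKY75 reaches 53.3 to 97.3 CPM in Col-0 -P+Th against 2.23 to 6.66 on -P, and 22.3 to 23.4 against 15.1 to 19.9 in N9416.

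Across the family, thorium on -P changed more members than any other treatment step in Col-0, N8507 and N8508, but not in N9416. In Col-0, 16 of the 51 members tested rose and 9 fell, where 11.9% of all genes tested rose and 13.5% fell. In N8507, 26 of 50 rose and 6 fell, against 15.9% and 13.9% of all genes. In N8508, 24 rose and 16 fell, against 23.2% and 23.9%. N9416 had 11 rises and 15 falls, against 20.1% and 19.9%, so its members rose about as often as all genes did. The median member changed by 0.22 in Col-0 and 1.14 in N8507, and by 0.38 and -0.12 in N8508 and N9416, where the median of all genes lay at -0.02, 0, 0.01 and 0. The group in which a member was highest was -P+Th for 25 of 51 members in Col-0 (49.0%, against 38.6% of all genes), 28 of 50 in N8507 (56.0% against 31.2%), 24 in N8508 (48.0% against 34.1%) and 11 in N9416 (22% against 19.8%). The 8 genes of a hypoxia list moved in these comparisons too, and not in 1 direction: 6 rose in Col-0 and 4 in N9416, while 4 fell in N8507 and 5 in N8508. Their summed level went from 1080 to 1670 CPM on -P to 2620 to 3720 on -P+Th in Col-0 and from 1310 to 2000 to 5050 to 5970 in N9416, and down to 818 to 933 in N8507 and 1190 to 1830 in N8508. Of the 8 root markers, 1 fell in Col-0, 5 fell in N8507, 3 rose and 2 fell in N8508, and 6 rose and 2 fell in N9416. The part of both lists in the WRKY values was not tested.

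The steepest rises in Col-0 were those of WRKY75, WRKY63, WRKY38, WRKY62, WRKY45 and WRKY31, and in N8507 those of WRKY38, WRKY62, WRKY75, WRKY63, WRKY45 and WRKY57. In N8508 they were those of WRKY8, WRKY38, WRKY40, WRKY57, WRKY28 and WRKY70, and in N9416 those of WRKY8, WRKY28, WRKY60, WRKY44, WRKY45 and WRKY23. The steepest falls were those of WRKY30, WRKY72, WRKY61, WRKY56, WRKY53 and WRKY11 in Col-0 and of WRKY59, WRKY61, WRKY9, WRKY72, WRKY65 and WRKY69 in N8507. They were those of WRKY59, WRKY61, WRKY72, WRKY29, WRKY56 and WRKY65 in N8508 and of WRKY59, WRKY53, WRKY29, WRKY54, WRKY72 and WRKY33 in N9416. WRKY8 was a gene of few reads, at 0.101, 0.215 and 0.764 CPM on -P and 3.12, 3.93 and 5.15 on -P+Th in N8508, a rise of 3.40 (SE 0.62, adjusted p = 0.000399).

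7 members rose in all 4 genotypes, namely WRKY6, WRKY23, WRKY28, WRKY31, WRKY45, WRKY60 and WRKY75, and WRKY61 and WRKY72 fell in all 4. A further 9 rose in 3 genotypes (WRKY8, WRKY15, WRKY38, WRKY41, WRKY51, WRKY57, WRKY62, WRKY63 and WRKY70) and 4 fell in 3 (WRKY11, WRKY53, WRKY59 and WRKY69). By contrast 11 members rose in one genotype and fell in another, among them WRKY33, WRKY51, WRKY54 and WRKY70, and WRKY7, WRKY12, WRKY13, WRKY42, WRKY43 and WRKY47 passed in none. The share of all genes called alike over genotypes was not counted, so these counts are not read as a trait of the family. Not all of these calls were firm: that of WRKY69 held in 2 of 6 fits without 1 library in Col-0 and in 3 of 6 in N8507. By role, all members tested of the phosphate group other than WRKY42 rose in each genotype. Of the members with defence, hormone or senescence roles, 10 of 30 rose and 6 fell in Col-0, against 11.9% and 13.5% of all genes, and 17 of 31 rose and 2 fell in N8507, against 15.9% and 13.9%. In N8508 18 rose and 10 fell, against 23.2% and 23.9%, and in N9416 4 rose and 12 fell, against 20.1% and 19.9%.

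WRKY28, an activator of the salicylate synthesis gene ICS1, and WRKY23, known from auxin-dependent root development, belonged to the 7. WRKY28 held 7.79, 5.9 and 3.55 CPM on -P and 27.7, 28.8 and 19.8 on -P+Th in Col-0, and 3.58, 5.67 and 4.11 against 63.3, 48.9 and 64 in N8507. Groups did not overlap in any genotype, and the rises were 2.12 (SE 0.27), 3.74 (SE 0.50), 2.21 (SE 0.25) and 1.29 (SE 0.21) in Col-0, N8507, N8508 and N9416. WRKY23 rose by 2.09 (SE 0.24), 1.81 (SE 0.24), 1.45 (SE 0.22) and 0.95 (SE 0.20). WRKY31 rose by 2.40 (SE 0.35, adjusted p = 0.000276) in Col-0 and by 0.80 (SE 0.24, adjusted p = 0.0136) in N9416, where the call was lost without -P+Th replicate 1 (adjusted p = 0.0863). ICS1 itself fell with thorium on -P, by 0.92 (SE 0.22) in Col-0, 0.88 (SE 0.19) in N8507, 2.05 (SE 0.17) in N8508 and 1.74 (SE 0.17) in N9416. On mock, thorium raised ICS1 by 1.32 (SE 0.20) in N8507 and 1.38 (SE 0.17) in N9416. WRKY28 rose there as well, by 2.67 (SE 0.49) and 1.08 (SE 0.21). A link between these genes was not tested.

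**Figure D3:**
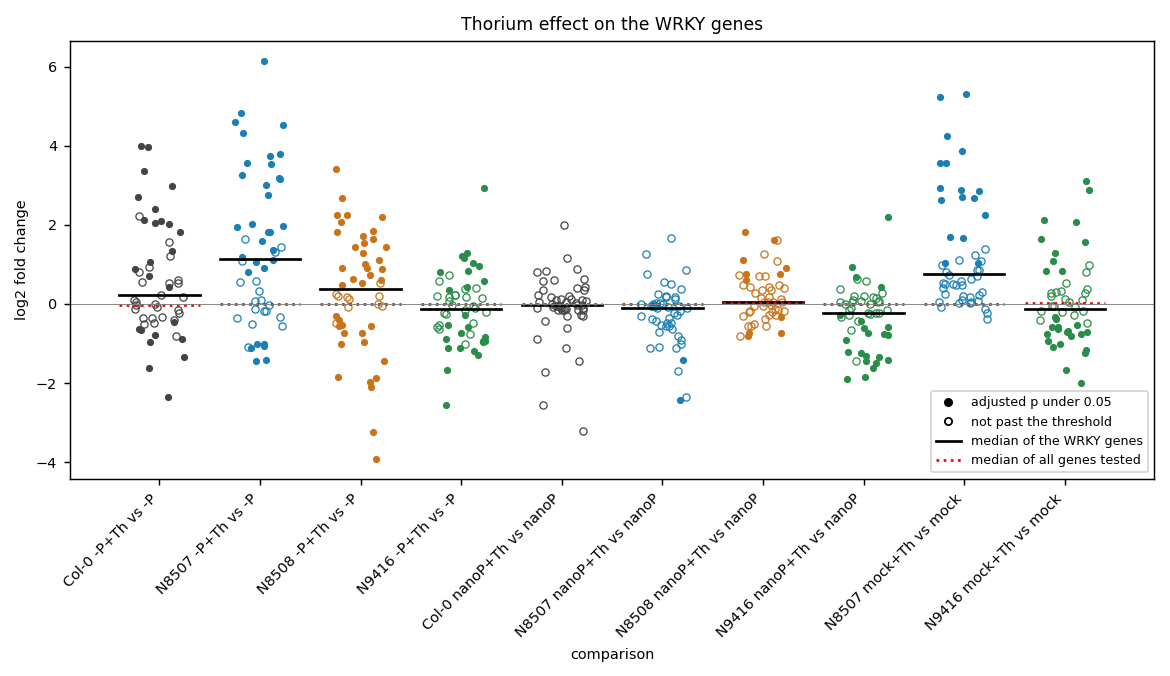
Log2 fold change of each tested WRKY gene (points) with thorium on -P, with nanoP and on mock, by genotype; filled points have an adjusted p under 0.05, black bars are the median of the WRKY genes and dotted red bars that of all genes tested. The black bar lies at 1.14 in N8507 and -0.12 in N9416 on -P, and no point is filled in Col-0 with nanoP.

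The 10 genes of group III include WRKY70, WRKY54, WRKY46 and WRKY53, regulators of salicylate responses and senescence, and WRKY62 and WRKY38, known as negative regulators of basal defence. With thorium on -P, 5 of the 10 rose and 2 fell in Col-0, against 11.9% and 13.5% of all genes, and 8 rose and none fell in N8507, against 15.9% and 13.9%. In N8508 7 rose and 2 fell, against 23.2% and 23.9%, and in N9416 none rose and 3 fell, against 20.1% and 19.9%. WRKY62 (AT5G01900) in Col-0 went from 2.94, 5.84 and 5 CPM on -P to 30.9, 40.6 and 39.7 on -P+Th, a rise of 2.99 (SE 0.29, adjusted p = 8.65e-06). In N8507 it went from 0.744, 1.87 and 2.22 to 51.2, 52.8 and 32.1, a rise of 4.83 (SE 0.50, adjusted p = 2.43e-06). The groups stood far apart in both. N8508 and N9416 already held 50.1 to 69.8 and 22.8 to 32.8 CPM of WRKY62 on -P without thorium, up from 16.2 to 22.1 and 2.14 to 5.95 on mock. There the -P step against mock was 1.67 (SE 0.23, adjusted p = 0.000278) in N8508 and 2.88 (SE 0.36, adjusted p = 1.1e-05) in N9416.

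WRKY38 showed the steepest rise of the family, 6.15 (SE 0.85, adjusted p = 4.23e-05) in N8507, from 0.0676, 0.467 and 0.808 to 27.5, 19.2 and 49.6 CPM. In Col-0 it went from 0.511, 0.962 and 3.04 to 15.6, 15.2 and 16.5 CPM, a rise of 3.37 (SE 0.58, adjusted p = 0.000992), and in N8508 it rose by 2.68 (SE 0.40). N9416 held 30.9, 23.6 and 20.5 CPM on -P and 8.69, 10.3 and 16.8 on -P+Th, groups that did not overlap, but the change of -1.01 (SE 0.41, adjusted p = 0.0567) did not pass. The difference in thorium effect, N9416 minus Col-0, was -4.47 (SE 0.79, adjusted p = 5.04e-05). WRKY63, known from abscisic acid responses, rose by 3.97 (SE 0.63) in Col-0, from 0.507 to 0.898 CPM to 8.06 to 15.1, and by 4.52 (SE 0.53) in N8507. In the counts by role WRKY63 stands with the defence, hormone and senescence members, not with those of abscisic acid roles. WRKY70 went in Col-0 from 9.7, 24.7 and 51.5 to 104, 93.9 and 109 CPM. The -P libraries of Col-0 were spread over more than 5 times, so that its call failed in 5 of 6 fits that left out 1 library, with adjusted p up to 0.132 without -P replicate 1. WRKY70 rose by 3.56 (SE 0.46, adjusted p = 2.34e-05) in N8507 and by 2.06 (SE 0.31, adjusted p = 6.49e-05) in N8508, and fell by 0.96 (SE 0.20, adjusted p = 0.00106) in N9416, from 96.3, 98.1 and 106 to 53.2, 47.5 and 47.6 CPM. WRKY54, its partner in salicylate signalling, rose by 1.10 (SE 0.23, adjusted p = 0.00134) in N8507 and fell by 0.95 (SE 0.11, adjusted p = 4.91e-06) in N8508 and by 1.18 (SE 0.20, adjusted p = 0.000184) in N9416.

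The promoters of members that rose together, and of WRKY59, which fell, are shown because WRKY proteins are known to bind W-boxes in WRKY promoters. Each line gives the 250 bases before the gene start, 5′ to 3′ on the strand of the gene, from TAIR10.1 (RefSeq), with every W-box core in capitals (TTGAC, or GTCAA where it lies on the opposite strand). The windows are chr5:4151202-4151451 on the minus strand for WRKY75, chr3:327413-327662 on the minus strand for WRKY45, chr5:352096-352345 on the minus strand for WRKY62 and chr2:9336279-9336528 on the minus strand for WRKY59.
WRKY75: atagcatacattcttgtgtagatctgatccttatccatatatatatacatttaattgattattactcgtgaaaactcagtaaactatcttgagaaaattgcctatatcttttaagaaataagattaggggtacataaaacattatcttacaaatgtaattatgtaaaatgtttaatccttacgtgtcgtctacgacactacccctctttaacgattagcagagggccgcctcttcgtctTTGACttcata
WRKY45: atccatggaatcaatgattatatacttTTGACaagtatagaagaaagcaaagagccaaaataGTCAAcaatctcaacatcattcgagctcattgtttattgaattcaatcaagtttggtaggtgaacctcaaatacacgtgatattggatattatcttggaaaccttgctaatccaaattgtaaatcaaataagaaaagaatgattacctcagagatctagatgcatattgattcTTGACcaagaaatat
WRKY62: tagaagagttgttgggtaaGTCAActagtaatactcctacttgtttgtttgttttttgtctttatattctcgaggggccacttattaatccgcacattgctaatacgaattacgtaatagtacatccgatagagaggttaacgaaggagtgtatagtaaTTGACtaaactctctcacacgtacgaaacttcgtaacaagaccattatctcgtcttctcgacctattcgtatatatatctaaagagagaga
WRKY59: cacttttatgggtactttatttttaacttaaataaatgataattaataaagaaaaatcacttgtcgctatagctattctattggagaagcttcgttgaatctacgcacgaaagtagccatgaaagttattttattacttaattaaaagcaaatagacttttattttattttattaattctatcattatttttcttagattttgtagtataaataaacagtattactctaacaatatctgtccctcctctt
WRKY75 holds 1 core, WRKY45 3, WRKY62 2 and WRKY59 0 in this window. These windows are picked examples. Core counts for members that rose and members that fell are not given here, so no link with direction is drawn. Searched on both strands, the core TTGAC occurred in 30 of the 52 member promoters (57.7%) and in 44.9% of 27443 promoters of the same length. The longer forms TTGACC or TTGACT, which contain the core, occurred in 20 (38.5%) against 28.4%. The P1BS element bound by the phosphate regulator PHR1 (GNATATNC) occurred in 2 (3.8%), WRKY55 and WRKY71, against 5.5%. A match is a run of letters and not a measured binding site.

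N9416 on -P was the highest group for WRKY33, WRKY40, WRKY46, WRKY53 and WRKY18. These genes are switched on early by pathogen, wound and touch signals. WRKY33, the activator of camalexin synthesis, held 391, 561 and 322 CPM on mock and 1450, 1420 and 1380 on -P in N9416, against 146, 269 and 341 on -P in Col-0. WRKY40, WRKY18 and WRKY60 form the small group IIa of defence and abscisic acid regulators, and WRKY40 went from 34.5, 58.2 and 72.6 to 432, 378 and 390 CPM. WRKY46 went from 35, 61.1 and 81.4 to 362, 357 and 384 CPM. All of these -P libraries lay above every other library of the series for the same gene, apart from WRKY40 in N9416 -P+Th, where 1 library held 425 CPM. WRKY53 went from 73.5, 101 and 67.5 to 184, 182 and 170 CPM and WRKY18 from 27.8, 27 and 14.7 to 153, 125 and 104. Rises on -P against mock were 1.74 (SE 0.21) for WRKY33, 2.86 (SE 0.35) for WRKY40, 2.64 (SE 0.40) for WRKY46 and 2.46 (SE 0.30) for WRKY18, with adjusted p between 7.17e-06 and 7.54e-05. High levels were not particular to -P: N9416 nanoP held on average 1010 CPM of WRKY33, 275 of WRKY40 and 272 of WRKY46. Between nanoP and -P these genes did not pass, with changes of -0.46, -0.52 and -0.41, while WRKY53 fell by 0.68 and WRKY18 by 1.34. Summed over the 52 members, N9416 held 4890 CPM on -P (SD 204, n = 3) against 3110 on mock (SD 263, n = 3), while the other genotypes held 1750 to 2530 on -P. Most of the N9416 gain came from WRKY33, WRKY40 and WRKY46, whose means went from 425, 55.1 and 59.2 CPM on mock to 1410, 400 and 368 on -P.

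In that comparison 17 of 50 members rose and 13 fell in N9416, against 20.8% and 17.3% of all genes. The 6 steepest rises were those of WRKY62, WRKY40, WRKY46, WRKY18, WRKY38 and WRKY30, and the 6 steepest falls those of WRKY50, WRKY7, WRKY17, WRKY29, WRKY11 and WRKY56. WRKY7, WRKY11 and WRKY17, group IId genes known as repressors of basal defence, fell by 1.59 (SE 0.14), 0.82 (SE 0.10) and 1.55 (SE 0.11). The 10 genes of a wound and touch list moved with these WRKY genes: all 10 rose in N9416 on -P, and their summed level was 6820 to 7840 CPM in those libraries against 2000 to 3020 on N9416 mock. With nanoP that sum was 5120 to 6650 CPM and with nanoP+Th 1740 to 3360, and its part in the WRKY values was not tested. With thorium on -P WRKY33 and WRKY53 came down in N9416, to 538, 686 and 669 and to 46.7, 56.2 and 59.2 CPM, falls of 1.11 (SE 0.20, adjusted p = 0.00038) and 1.67 (SE 0.20, adjusted p = 4.43e-06), while 5 of the 10 wound and touch genes fell. In N8508, where 5 of those 10 genes rose, WRKY33 rose by 0.89 (SE 0.17, adjusted p = 0.000681), WRKY40 by 2.25 (SE 0.49, adjusted p = 0.00155) and WRKY46 by 1.73 (SE 0.40, adjusted p = 0.00227). WRKY60 rose with thorium in every genotype, by 1.34 (SE 0.29), 1.82 (SE 0.38), 1.10 (SE 0.32) and 1.21 (SE 0.25) in Col-0, N8507, N8508 and N9416. WRKY33, WRKY40 and WRKY53 each overlap a gene on the opposite strand, by 26, 51 and 341 annotated bases, as do 6 further members (WRKY2, WRKY4, WRKY9, WRKY29, WRKY41 and WRKY69), and the strand setting of the counting is not given in the sources used here. Within other genotypes the same genes varied widely between libraries of one group: WRKY40 held 11.4, 71 and 120 CPM on Col-0 -P, and the summed list ran from 1120 to 4360 there.

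**Figure D4:**
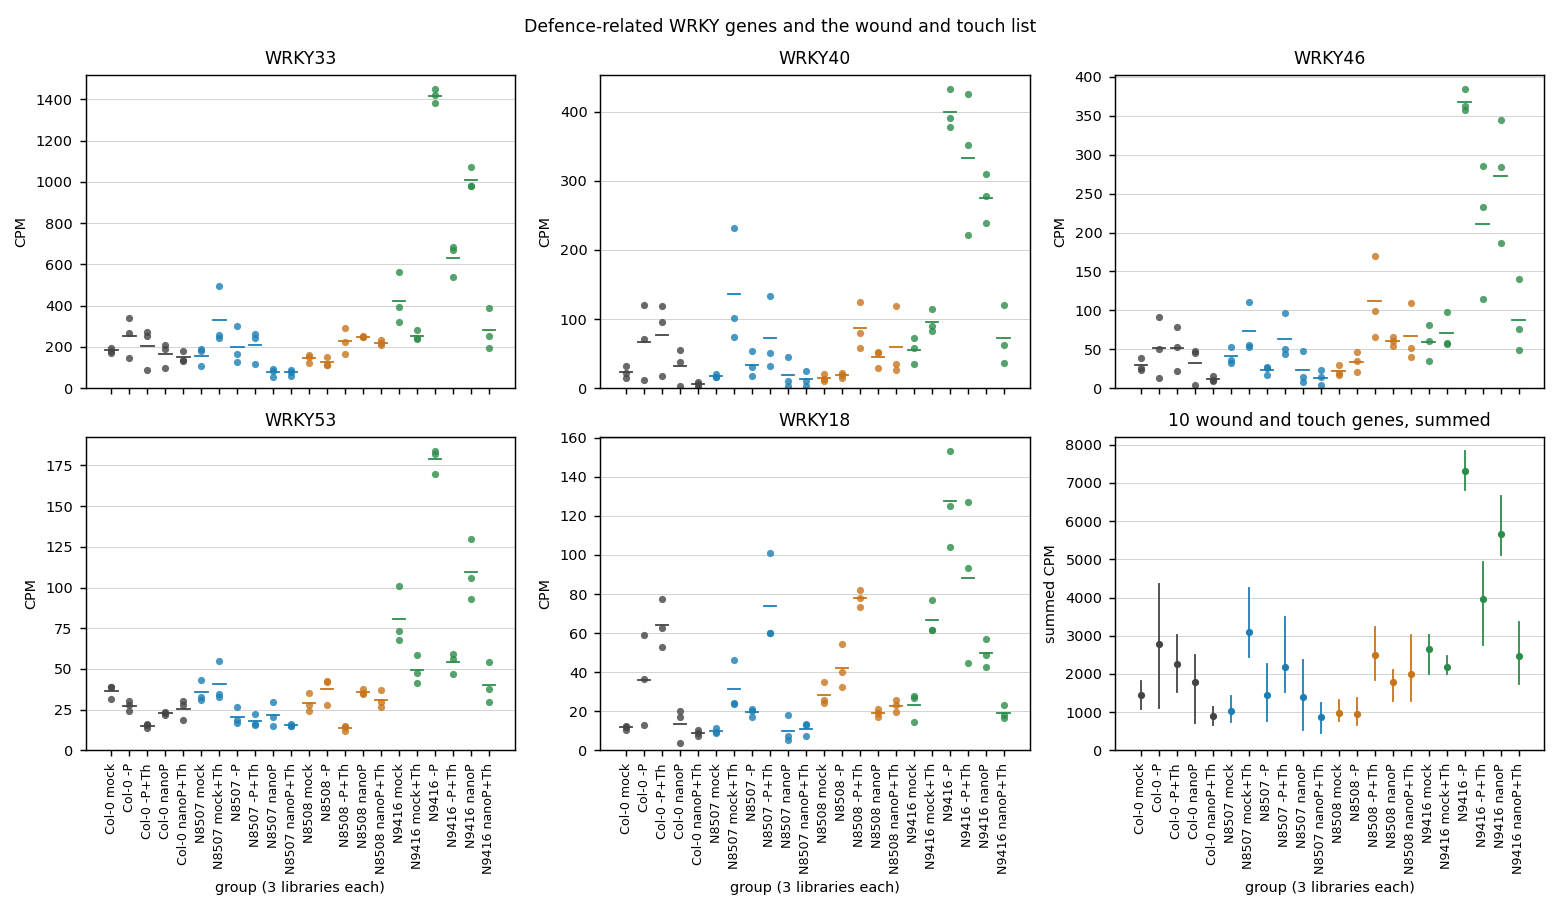
CPM of WRKY33, WRKY40, WRKY46, WRKY53 and WRKY18 in each library (points, bars are group means) and, in the last panel, the summed CPM of 10 wound and touch genes (point for the mean, line from the lowest to the highest library). N9416 on -P is the highest group in every panel, with WRKY33 at 1380 to 1450 CPM.

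The other genotypes changed few WRKY genes on -P against mock. None of 51 members rose in Col-0 and 3 fell, against 3.73% and 2.88% of all genes, where the smallest adjusted p among the members was that of WRKY31. WRKY31 went from 17.9, 17.5 and 21 to 6.7, 4.04 and 2.32 CPM with no overlap, a fall of 2.09 (SE 0.35, adjusted p = 0.00142). WRKY41, known from seed dormancy and defence, fell by 1.38 (SE 0.27, adjusted p = 0.00463) and WRKY63 by 2.54 (SE 0.63, adjusted p = 0.0222), the last call being lost in 5 of 6 fits without 1 library with adjusted p up to 0.0887 without -P replicate 1. In N8507, 2 of 50 rose and none fell, against 3.13% and 0.776%: WRKY59 by 2.03 (SE 0.29, adjusted p = 0.000386) and WRKY63 by 2.81 (SE 0.73, adjusted p = 0.0404), from 0.0632 to 0.132 CPM to 0.269 to 1.28. That WRKY63 call was lost in 4 of 6 fits, with adjusted p up to 0.223 without -P replicate 1. N8508 had 6 rises and 5 falls, against 5.73% and 3.86%. After WRKY62 its risers were WRKY59, WRKY45, WRKY54, WRKY2 and WRKY69, and its fallers WRKY30, which fell by 2.47 (SE 0.45), WRKY22 by 1.42 (SE 0.26), WRKY17, WRKY15 and WRKY7. The calls of WRKY2, WRKY69 and WRKY7 held in 2, 1 and 3 of 6 fits without 1 library, and the N8508 count of 11 became 17 without -P replicate 2. The N8507 count of 2 became 1 without -P replicate 1, mock replicate 1 or mock replicate 2, and 4 without -P replicate 2.

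The count of members called on -P was sensitive to how the libraries were combined. In Col-0 the 3 calls became 8 when the low effective length libraries were left out, 5 in 1 fit of all libraries and 7 with DESeq2, and in N8507 the 2 calls became 7, 8 and 6. Direct tests of the -P response against that of Col-0 called 4, 6 and 10 members in the lines N8507, N8508 and N9416, against 5.54%, 6.45% and 7.15% of all genes. WRKY63 and WRKY31 differed most: line minus Col-0 was 5.36 (SE 0.93) and 4.01 (SE 0.62) in N8507, and 2.66 (SE 0.67) and 2.96 (SE 0.54) in N9416, with WRKY63 at 3.55 (SE 0.66) in N8508. WRKY30 in N8508 was at -3.70 (SE 0.79). The N8507 count of 4 became 2 without Col-0 -P replicate 1, N8507 -P replicate 3 or N8507 mock replicate 1, and 7 without N8507 -P replicate 1 or N8507 mock replicate 3.

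WRKY59, WRKY72, WRKY61 and WRKY29, chosen after their values were seen, each fell with thorium on -P in at least 2 genotypes. WRKY59, whose sixth signature codon reads lysine, rose on -P against mock in N8507, N8508 and N9416 and fell with thorium on -P in the same lines. It held 186, 183 and 273 CPM on mock in N8508, 577, 316 and 539 on -P and 33.3, 31.6 and 29.5 on -P+Th. The groups followed each other without overlap, and the steps were a rise of 1.16 (SE 0.22, adjusted p = 0.00355) and a fall of 3.91 (SE 0.25, adjusted p = 1.2e-08). In N9416 thorium on -P took it from 331, 290 and 287 to 65.3, 49.9 and 34.6 CPM, a fall of 2.54 (SE 0.27, adjusted p = 1.78e-06), and in N8507 from 73.1, 77.9 and 146 to 37.6, 31.2 and 38.1, a fall of 1.45 (SE 0.28, adjusted p = 0.000936). Col-0 held 122, 157 and 148 CPM on -P and 120, 54.7 and 70.7 on -P+Th, where WRKY59 did not pass. The 120 CPM came from the Col-0 library of low effective length, and the other -P+Th libraries also lay below every -P library. On complete medium it went the other way in N8507, from 22, 24.2 and 25.9 CPM on mock to 150, 114 and 182 on mock+Th, a rise of 2.64 (SE 0.30, adjusted p = 1.45e-05), and did not pass in N9416, with -0.40 (SE 0.25, adjusted p = 0.201). N8508 minus Col-0 in the thorium effect on -P was -3.12 (SE 0.46, adjusted p = 1.61e-06), a difference in which that Col-0 library of low effective length takes part. Nano-hydroxyapatite on its own also lowered WRKY59, by 1.86 (SE 0.29) in N8507 and 1.99 (SE 0.23) in N8508, and it fell in N9416 too.

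WRKY72, a regulator of basal defence, held 214, 232 and 216 CPM on -P and 63.1, 87.6 and 69.2 on -P+Th in Col-0. It fell by 1.62 (SE 0.14, adjusted p = 3.18e-06) there, by 1.06 (SE 0.29) in N8507, 2.11 (SE 0.16) in N8508 and 1.11 (SE 0.11) in N9416. WRKY61, also of group IIb, fell by 1.35 (SE 0.16), 1.42 (SE 0.42), 3.23 (SE 0.26) and 0.94 (SE 0.11). Both genes lost the N8507 call without N8507 -P replicate 3, with adjusted p = 0.0829 for WRKY72 and 0.0825 for WRKY61. WRKY29, which acts below the flagellin-triggered kinase cascade, fell by 1.96 (SE 0.20) in N8508 and 1.29 (SE 0.14) in N9416. In N8507 it went the other way, from 18.3, 12 and 23.9 CPM to 25.9, 23.1 and 62.3, groups that overlapped, a rise of 1.05 (SE 0.36, adjusted p = 0.0379). That call held in 3 of 6 fits without 1 library and stood at 0.47 (adjusted p = 0.295) without N8507 -P+Th replicate 3, one of the low effective length libraries. WRKY65 fell by 1.01 (SE 0.19) in N8507 and 1.85 (SE 0.11) in N8508. WRKY30, an oxidative stress gene, fell by 2.36 (SE 0.60, adjusted p = 0.0113) in Col-0 and rose by 1.85 (SE 0.47, adjusted p = 0.00456) in N8508, and the difference of the effects, N8508 minus Col-0, was 4.16 (SE 0.82, adjusted p = 0.000203). It also rose in N8507 by 1.59 (SE 0.55, adjusted p = 0.0382), a call lost without N8507 -P replicate 1 or 3 or N8507 -P+Th replicate 1 or 3, with adjusted p up to 0.134.

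**Figure D5:**
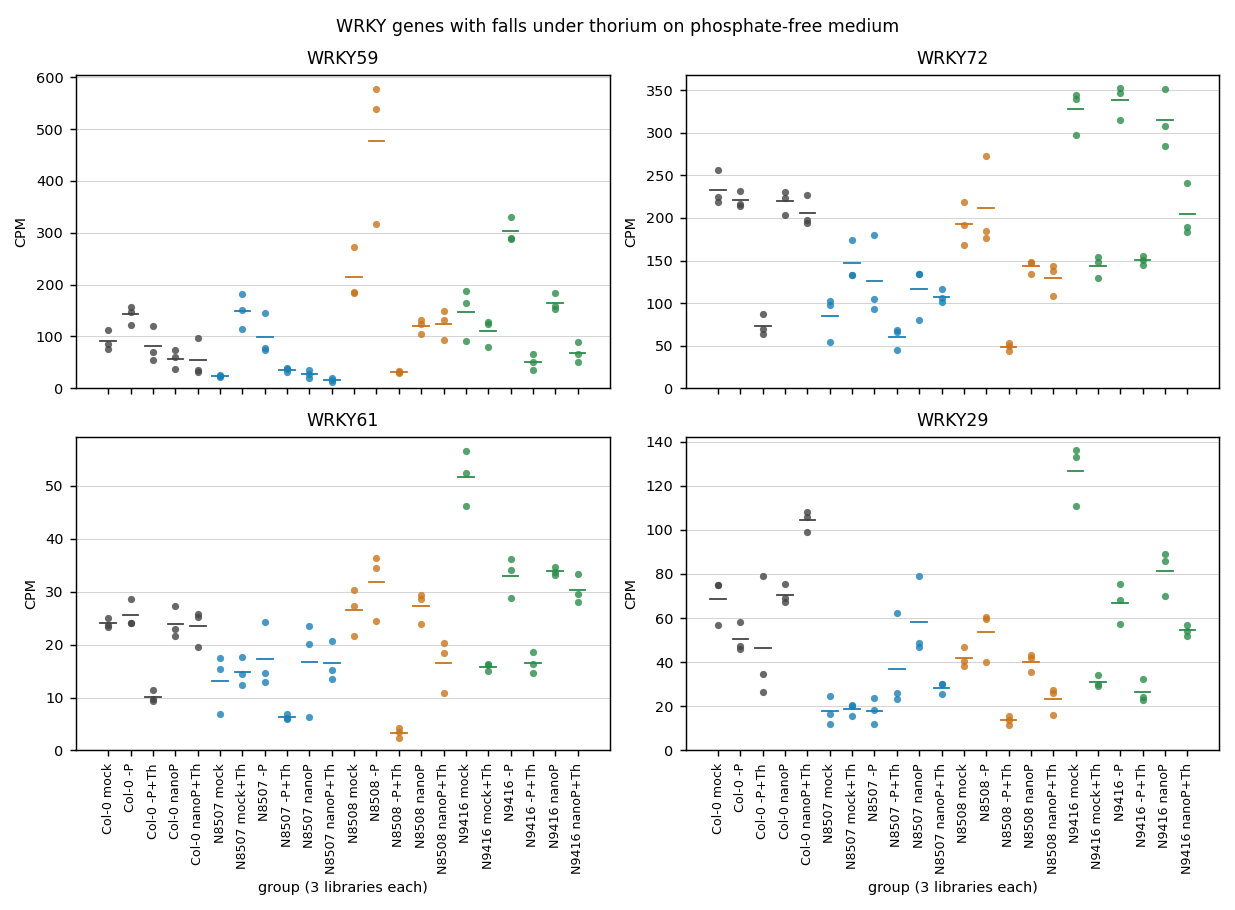
CPM of WRKY59, WRKY72, WRKY61 and WRKY29 in each library (points, bars are group means), by group and coloured by genotype. WRKY59 runs from 316 to 577 CPM on -P in N8508 and from 29.5 to 33.3 on -P+Th, WRKY72 is lower on -P+Th than on -P in every genotype, and WRKY29 is lower on -P+Th in N8508 and N9416 but not in N8507.

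Of the 11 members with developmental, cell wall or abscisic acid roles, thorium on -P raised 3 of 11 and lowered 1 in Col-0, against 11.9% and 13.5% of all genes. It raised 5 of 10 and lowered 1 in N8507 (15.9% and 13.9%), raised 3 and lowered 2 in N8508 (23.2% and 23.9%), and raised 4 and lowered 1 in N9416 (20.1% and 19.9%). WRKY23 and WRKY31 rose in every genotype. WRKY71, a regulator of shoot branching, rose in N8507 by 3.15 (SE 0.54, adjusted p = 0.000305) and did not pass in the other genotypes. WRKY57, known from drought and jasmonate-induced senescence, rose in N8507 by 3.79 (SE 0.51), from 1.69, 1.07 and 1.41 to 26, 24.5 and 6.22 CPM, the last being a library of low effective length, and in N8508 by 2.24 (SE 0.22). WRKY44, the trichome and seed coat gene TTG2, rose in N9416 by 1.15 (SE 0.23, adjusted p = 0.000837) and stayed within 2.41 to 5.59 CPM over the Col-0 libraries, with a thorium change on -P of -0.24 (SE 0.34, adjusted p = 0.645). WRKY9, a regulator of root suberin genes, fell by 1.11 (SE 0.21) in N8507 and by 0.56 (SE 0.17, adjusted p = 0.0148) in N8508, and rose by 0.58 (SE 0.19, adjusted p = 0.0218) in N9416. The N8508 call was lost without -P replicate 3 (adjusted p = 0.105) and -P+Th replicate 1 (0.0509), and the N9416 call without -P replicate 2 (0.112) and -P+Th replicate 1 (0.135). WRKY47, linked to cell wall genes, did not pass with thorium on -P, with changes from -0.51 (SE 0.35) in N8507 to 0.08 (SE 0.16) in N9416.

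With nano-hydroxyapatite present, thorium changed fewer members than on -P in Col-0, N8507 and N8508, while in N9416 it changed 22 of 50 against 26 on -P. In Col-0 none of 51 rose or fell by edgeR (0.0803% and 0.0251% of all genes did), 7 had an unadjusted p under 0.05, and DESeq2 called 0. In N8507 none rose and 2 of 50 fell, against 1.96% and 2.69%: WRKY56 by 2.42 (SE 0.48, adjusted p = 0.00643) and WRKY51 by 1.42 (SE 0.38, adjusted p = 0.0429, lost in 5 of 6 fits without 1 library). In N8508 7 rose and 4 fell, against 9.22% and 7.18%, led by WRKY50 with 1.83 (SE 0.35) and WRKY30 with 1.61 (SE 0.39), and the count of 11 became 6 without nanoP replicate 2 and 5 without nanoP replicate 3. In N9416 4 rose and 18 fell, against 10.5% and 11.1%. The N9416 falls were led by WRKY40 with -1.90 (SE 0.34), WRKY33 with -1.84 (SE 0.21), WRKY46 with -1.61 (SE 0.38), WRKY41, WRKY31 and WRKY53, and by the wound and touch list, of which 9 of 10 fell. WRKY33 held 979, 981 and 1070 CPM on N9416 nanoP and 197, 254 and 389 on nanoP+Th.

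The difference between the thorium effect on -P and that with nanoP was tested directly. In the order Col-0, N8507, N8508, N9416 it passed for 16, 27, 24 and 14 members, against 7.72%, 24%, 28.8% and 20.4% of all genes. For WRKY75, with nanoP at 1.79, 8.17 and 6.2 CPM and nanoP+Th at 3.3, 2.67 and 2.76 in Col-0, the thorium effect on -P was larger by 4.89 (SE 0.63, adjusted p = 0.000284). It was larger in the other genotypes too, by 3.35 (SE 0.76), 2.34 (SE 0.49) and 1.73 (SE 0.21) in N8507, N8508 and N9416. WRKY38 differed by 5.11 (SE 1.04) in Col-0 and 6.24 (SE 1.22) in N8507, and WRKY62 by 4.11 (SE 0.42) and 5.94 (SE 0.72). WRKY59 in N8508 was at -3.97 (SE 0.32), its level with nanoP staying at 105, 124 and 131 CPM without thorium and 93.6, 131 and 149 with it.

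Nano-hydroxyapatite against -P, both without thorium, changed 28 members in N8508 and 17 in N9416 but 1 in Col-0 and 2 in N8507. In N8508 9 rose and 19 fell, against 17.7% and 20.3% of all genes, and in N9416 6 rose and 11 fell, against 15.2% and 15.1%. In Col-0 WRKY45 fell and none rose (2.6% rose and 3.49% fell over all genes), and the count of 1 became 0 without nanoP replicate 1 or 3, 2 without nanoP replicate 2 and 3 without -P replicate 1. In N8507 WRKY29 rose by 1.68 (SE 0.36) and WRKY59 fell (2.11% and 2.38%), the WRKY29 call being lost without -P replicate 2 (adjusted p = 0.0707). WRKY62 and WRKY38 were the steepest to fall in N9416, by 3.07 (SE 0.36) and 2.52 (SE 0.44), and fell in N8508 by 2.57 (SE 0.24) and 2.21 (SE 0.48). In N8508 WRKY43, WRKY45, WRKY50 and WRKY55 fell by 2.14 to 2.34, and WRKY22 rose most, by 2.04 (SE 0.26), from 3.55 to 14.8 CPM on average. In N9416 WRKY60 rose most, by 1.27 (SE 0.25).

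On complete medium thorium was applied to N8507 and N9416 only. In N8507 17 of 50 members rose and none fell, against 8.22% and 3.59% of all genes, with a median of 0.76 against -0.01. WRKY75 went from 0.316, 0.461 and 1.32 CPM on mock to 9.76, 12.5 and 17.3 on mock+Th, a rise of 4.25 (SE 0.56), and WRKY45 from 0.505, 0.198 and 0.627 to 15.3, 16.9 and 17.9, a rise of 5.22 (SE 0.69). The libraries with and without thorium stood well apart for both genes. The steepest rises beside these were those of WRKY63 with 5.31 (SE 0.66), WRKY50, WRKY38 and WRKY62. WRKY63 and WRKY50 held only 4 reads each, and WRKY38 16, over the N8507 mock libraries together. The WRKY50 call held in 4 of 6 fits without 1 library. These N8507 mock libraries were themselves low: against Col-0 on mock 2 of 52 members were higher and 24 lower in N8507, against 18.1% and 18% of all genes, with WRKY75 at -3.43 (SE 0.49), WRKY45 at -3.22 (SE 0.50), WRKY63 at -5.34 (SE 0.67), WRKY31 at -4.72 (SE 0.47) and WRKY41 at -3.03 (SE 0.34). The same N8507 mock libraries held 5340 to 11100 CPM summed over 8 hypoxia response genes, against 1270 to 2970 in Col-0 mock and 1640 to 4650 in N8507 mock+Th. The 10 wound and touch genes summed to 746 to 1430 CPM in N8507 mock and 2450 to 4240 in N8507 mock+Th. Among them CZF1, SZF1 and TCH3 rose and the others did not pass. What part either list had in the WRKY values was not tested. The N8507 mock+Th mean of WRKY75, 13.2 CPM, stood beside 7.49 in Col-0 mock.

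In N9416 thorium on mock raised 10 members and lowered 19 of 50, against 27.2% and 24.5% of all genes, with a median of -0.12 against 0.03. WRKY62 rose by 3.12 (SE 0.36), from 5.95, 2.61 and 2.14 to 28.3, 25.7 and 38.3 CPM, WRKY30 by 2.89 (SE 0.53), WRKY8 by 2.13 (SE 0.54), WRKY45 by 2.06 (SE 0.23), WRKY44 by 1.63 (SE 0.26) and WRKY18 by 1.56 (SE 0.30). The steepest falls were those of WRKY29 with -2.0 (SE 0.14), WRKY61 with -1.68 (SE 0.11), WRKY11 with -1.24 (SE 0.10), WRKY72 with -1.17 (SE 0.11), WRKY31 and WRKY2. WRKY75 did not pass, at 17.2, 17.8 and 14.1 CPM on mock and 16.3, 19.2 and 22.5 with thorium. All 8 hypoxia genes rose in this comparison, to a sum of 5540 to 8930 CPM from 903 to 1800, and their part was not tested. In the same comparison all 3 of the 6 green tissue markers that could be tested rose, the sum of the 6 going from 0.429 to 1.55 CPM up to 7.16 to 47.2, and of the 8 root markers 3 rose and 2 fell, WER by 1.32 (SE 0.21) and PLT1 by 1.37 (SE 0.19) among the rises. Their part in the WRKY values was not tested. WRKY18, WRKY23, WRKY28, WRKY40, WRKY45 and WRKY62 rose on mock in both lines. Of these the WRKY40 call held in 1 of 6 fits without 1 library in N9416 (adjusted p up to 0.415) and in 2 of 6 in N8507 (up to 0.143), and in N8507 that of WRKY18 held in 4 of 6 (up to 0.0699) and that of WRKY23 in 5 of 6 (up to 0.0604).

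Against Col-0 on mock, N8508 was higher in 9 members and lower in 5 (14.8% and 12.4% of all genes), and N9416 higher in 15 and lower in 3 (15.8% and 16%). WRKY62 at 2.66 (SE 0.37) and WRKY48 at 1.82 (SE 0.36) stood out in N8508, with WRKY8, whose Col-0 mock libraries held 6 reads together against 43 in N8508, at 3.17 (SE 0.86). In N9416 WRKY33 was higher by 1.22 (SE 0.33), WRKY53 by 1.15 (SE 0.21), WRKY22 by 1.76 (SE 0.33) and WRKY75 by 1.12 (SE 0.38), the last lost in 3 of 6 fits without 1 library, with adjusted p up to 0.0561 without Col-0 mock replicate 2. WRKY31 and WRKY41 were lower than in Col-0 in all 3 lines, WRKY31 by -4.72, -2.48 (SE 0.40) and -1.51 (SE 0.38) and WRKY41 by -3.03, -2.42 (SE 0.33) and -1.61 (SE 0.32) for N8507, N8508 and N9416. The 3 comparisons share the Col-0 mock libraries.

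The thorium effect on -P differed from that of Col-0 in 15, 12 and 21 members of N8507, N8508 and N9416, against 20.4%, 14.8% and 18.8% of all genes, and these comparisons share the Col-0 libraries as well. The line's effect was higher than that of Col-0 in 14 of the 15 in N8507 and lower in 11 of the 12 in N8508 and 18 of the 21 in N9416. Of all genes 9.89% were higher and 10.6% lower in N8507, 4.78% and 10% in N8508, and 7.68% and 11.1% in N9416. In N9416 the members with the largest differences were WRKY38, WRKY75 and WRKY63, at -4.47, -3.66 and -3.48 (SE 0.66), and in N8507 WRKY30, WRKY38 and WRKY71, at 3.90 (SE 0.77), 2.72 (SE 0.94) and 2.17 (SE 0.57), the WRKY38 difference losing its call in 4 of 12 fits without 1 library (adjusted p = 0.279 without Col-0 -P replicate 3). The N8507 count became 9 without Col-0 -P replicate 3 and 8 when only the libraries of both genotypes were fitted, and the N9416 count became 13 without Col-0 -P replicate 1.

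Known partners and targets of WRKY proteins were followed as a list of 35 genes, of which 33 could be tested. With thorium on -P, 4 rose and 7 fell in Col-0, where 11.9% and 13.5% of all genes did, so the rises were at the background. In N8507 13 rose and 4 fell (15.9% and 13.9% of all genes), in N8508 15 and 5 (23.2% and 23.9%), and in N9416 4 and 15 (20.1% and 19.9%). ALMT1, the malate channel gene that WRKY46 represses, rose in every genotype, from 4 reads in the 3 Col-0 -P libraries together to 2822 reads on -P+Th, a log2 change of 9.35 (SE 0.73), and by 8.66 (SE 0.53) in N8507 and 10.47 (SE 0.37) in N8508. The VQ-motif partner gene SIB2, whose protein binds WRKY33, rose by 3.04 (SE 0.46) in N8507 and 1.25 (SE 0.39) in N8508 and fell by 1.10 (SE 0.31) in N9416. CYP94B3, a jasmonate-catabolism gene, rose in all 4 genotypes, by 2.40 (SE 0.56), 3.5 (SE 0.50), 2.39 (SE 0.31) and 1.19 (SE 0.22). PAD3, the camalexin gene that WRKY33 activates, rose by 2.48 (SE 0.23) in N8507 and 1.88 (SE 0.33) in N8508. On -P against mock, 18 of the 33 rose and 3 fell in N9416, against 20.8% and 17.3% of all genes, led by JAZ8 with 4.35 (SE 0.53), JAZ10 with 3.59 (SE 0.41) and CYP94B3 with 2.99 (SE 0.28), while PHT1;1 rose by 2.14 (SE 0.28) in Col-0 and was the one gene of the 33 to pass there.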

How the data were processed

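The submitters' processing notes name Trimmomatic, Salmon 1.3.0 and the TAIR10 build for these root libraries. Total RNA (Spectrum kit) went into strand-marking NEBNext libraries, per the labels' protocols. The deposited tables give, for 32875 transcript models, an estimated count and a TPM value, both as the authors' tool made them. The models are nearly all coding sequences, since 99.99% of lengths are multiples of 3. Estimated counts were summed per locus to 27313 loci and rounded to whole numbers, and TPM was summed per locus to compare levels between genes.

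Counts were tested with edgeR 4.0.16 (quasi-likelihood test, TMM scaling, filterByExpr by group, R 4.3.3), with Benjamini-Hochberg adjustment over all genes tested and a threshold of 0.05. One fit per genotype served comparisons within it (19762 to 20241 genes), and 1 fit of the 66 libraries served comparisons with Col-0 (20839 genes). Standard errors were derived from the F statistic. Groups come from the sample titles, and replicates were numbered in accession order. No pair of libraries held identical values, and the highest correlation of any pair (log2 CPM) was 0.9903. The procedure was tested on simulated data. Far fewer genes were changed there than were called in most comparisons here, and no outcome is given.

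Alternatives were DESeq2 1.42.0, its size factors in edgeR, no filter on low counts, other sets of libraries in the fit, leaving out the 3 libraries of low effective length, and leaving out each library in turn. The WRKY genes and all gene lists were chosen with earlier results of these data known. The genes named are those of a list chosen for known roles, up to 6 that rose and 6 that fell most in a comparison, and up to 3 in comparisons with Col-0, between thorium effects and for other lists. Sequences come from NCBI RefSeq's TAIR10.1; of 26636 loci in both, 97.3% had the same coding length as in the files, the members included for 50 of 52. The depth gives counting error only, and intervals between libraries come from the fits.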

Additional observations from a re-analysis of the deposited data

Results flagged for a closer look

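Each value below is a log2 difference between 2 effects that passed its own test (edgeR's quasi-likelihood test, adjusted over all genes), and no explanation was weighed. For the thorium effect on -P minus that with nanoP, Col-0 showed WRKY38 at 5.11, WRKY75 at 4.89 and WRKY62 at 4.11. N8507 showed WRKY38 at 6.24, WRKY62 at 5.94 and WRKY63 at 5.07. N8508 showed WRKY59 at -3.97, WRKY57 at 2.74 and WRKY56 at -2.61, and N9416 showed WRKY8 at 3.08, WRKY31 at 2.26 and WRKY41 at 1.86.

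For the response to -P, line minus Col-0, the values were WRKY63 5.36, WRKY31 4.01 and WRKY75 2.52 in N8507. They were WRKY30 -3.70, WRKY63 3.55 and WRKY22 -2.02 in N8508, and WRKY31 2.96, WRKY63 2.66 and WRKY62 2.26 in N9416. For the thorium effect on -P, line minus Col-0, they were WRKY30 3.90, WRKY38 2.72 and WRKY71 2.17 in N8507. In N8508 they were WRKY30 4.16, WRKY59 -3.12 and WRKY63 -3.09, and in N9416 WRKY38 -4.47, WRKY75 -3.66 and WRKY63 -3.48. In WRKY31 and WRKY63 the Col-0 fall on -P enters all 3 comparisons with Col-0, which share those libraries. The N8507 mock libraries held only 4 reads of WRKY63 together.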

How the results depend on the processing

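No called member value changed direction, and values that were not called were not checked for this. Of 505 called member values, 336 stayed past the threshold in every alternative and every fit without 1 library. Counts of called members that moved by over 1.5 times were these, and the cause was not tested. For -P against mock, the count of 3 in Col-0 became 5 in 1 fit of all libraries, 7 with DESeq2 and 8 without the libraries of low effective length, the 2 in N8507 became 8, 6 and 7, and the 11 in N8508 became 6 in the fit of all libraries. For nanoP against -P, the 1 in Col-0 became 3, 3 and 6, the 2 in N8507 became 5, 4 and 6, and the 17 in N9416 became 11 in the fit of all libraries. That fit also took thorium with nanoP from 2 to 5 in N8507, 11 to 4 in N8508 and 22 to 14 in N9416, and the thorium difference in N9416 from 14 to 5. Without the libraries of low effective length, thorium on mock in N8507 went from 17 to 26, and the -P response against Col-0 from 4 to 9 in N8507 and 6 to 10 in N8508. With only the genotypes compared, the N8507 -P response went from 4 to 2 and its thorium effect from 15 to 8. Leaving out 1 library gave counts of 1 to 4 for -P in N8507, 9 to 17 for -P in N8508, 0 to 3 for nanoP against -P in Col-0, 1 to 2 and 5 to 12 for thorium with nanoP in N8507 and N8508, 2 to 7 for the N8507 -P response against Col-0, and 9 to 19 and 13 to 22 for the thorium effect against Col-0 in N8507 and N9416. No paired analysis was possible because the labels carry no replicate numbers. With 3 libraries a group, members of few reads such as WRKY42 and WRKY8 were limited by depth.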
